A study of Homo sapiens with 2 samples.

Results

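Heat shock proteins and their DNAJ cochaperones were followed as a family of 71 rows among the 60649 of the count table. They were matched by gene name alone (HSPA, HSPB, HSPD1, HSPE1, HSPH1, the 3 HSP90 genes and DNAJA, DNAJB and DNAJC, without HSPA5). No count entered this rule, but the rule was set with earlier results of these data known. The 2 libraries came from RNA immunoprecipitation (RIP), which uses an antibody to pull a protein out of a lysate and sequences the RNA that comes with it. The MT1-MMP RIP targeted MT1-MMP, a protease of the cell surface and the product of MMP14, and the mock RIP used rabbit IgG. Both used MDA-231, an established human breast cancer line of wild-type genotype per the labels. Its cells had spent 16 h without serum in the presence of P4G11, an antibody to beta-1 integrin, and the protocol names E7-s beside it without saying what it was for. Both libraries share this treatment, and untreated cells were not analysed here. MMP1 stands in the title of the MT1-MMP sample and MDA-232 as the line of the mock sample, and the groups here follow the series' design text.

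Heat shock proteins are molecular chaperones, which bind unfolded stretches of other proteins and help them fold, or hold them until they can be degraded. HSP70 proteins bind and release their clients in a cycle driven by ATP, and J-domain proteins of the DNAJ families deliver clients to HSP70 and switch on its ATPase. HSP90 acts later on partly folded kinases and receptors, HSP60 with its lid HSP10 folds proteins inside mitochondria, HSP110 exchanges the nucleotide of HSP70, and small HSPs hold unfolded proteins without ATP. Cancer cells commonly contain large amounts of cytosolic HSP70 and HSP90, whose genes are switched on by the transcription factor HSF1.

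The table holds 31636000 MT1-MMP counts and 13003668 IgG counts, from 1 library of each kind, so no difference below has a replicate check and no p-value was computed. A block of 28 ribosomal DNA rows took 92.6% of the IgG counts and 10.2% of the MT1-MMP counts, which leaves 962952 and 28401567 counts outside it. Levels are therefore given on 2 scales. Plain CPM, counts scaled to the library total, sets the totals equal. Trimmed mean of M-values (TMM) scaling sets the typical row equal, which happens at 45.9 MT1-MMP counts to 1 IgG count, and each log2 ratio of MT1-MMP over IgG is 4.24 lower on this scale than by plain CPM. Differences between members are the same on every scale. The 95% intervals are exact (Clopper-Pearson) and cover counting error only. A row with at least 20 summed counts is referred to as tested. It was called on the IgG side or on the MT1-MMP side if its interval cleared a 2-fold distance from the typical row entirely. In bulk RNA, more cells carrying an RNA and more RNA per cell cannot be told apart. MMP14 itself had 367 and 134 counts, a log2 ratio of -4.07 on the TMM scale and 0.17 by plain CPM (95% interval -0.12 to 0.47). Of 6 mesenchymal markers of the line, 5 were tested, with 3 called on the IgG side and log2 ratios from -4.19 for VIM (1813 and 721 counts) to 0.34 for CD44 (25209 and 432), while SPARC had 3 and 0 counts. Of 6 luminal markers 5 were tested, from KRT19 on the IgG side (116 and 119 counts, -5.56) to ESR1 on neither (369 and 3, 1.20), while CDH1 had 17 and 0 counts, and all 5 blood markers had 0 IgG counts and 1 to 50 MT1-MMP counts.

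The family divided by class. Of the 71 members, 58 were tested and 13 fell below 20 summed counts, among them 6 of the 8 small HSPs, HSPA6 and HSPA7. On the TMM scale 16 tested members (27.6%) were called on the IgG side, 2 (3.45%) on the MT1-MMP side and 40 on neither. Among all tested protein-coding genes the shares were 16.2% and 7.24%. The 16 held 13 of the 20 tested HSP members (65%) and 3 of the 38 tested DNAJ members (7.89%). The median log2 ratio was -2.46 over the HSP members and -0.31 over the DNAJ members, against 0.054 over all tested protein-coding genes. With the 5 tested members at 0 IgG counts set to a floor of 3, the medians of the HSP and DNAJ members were -2.59 and -0.41. Plain CPM put these medians at 1.78, 3.93 and 4.29 and turned most calls, with 46 members on the MT1-MMP side (86.1% of protein-coding genes) and 4 on the IgG side (0.698% of protein-coding genes). Scaled by totals without the ribosomal DNA block, 14 members lay on the IgG side (DNAJA2 and HSPA13 no longer did) and 7 on the MT1-MMP side, where 11.2% and 17.8% of protein-coding genes lay. The 4 on the IgG side by plain CPM were HSPA8, HSPA1A, HSPA1B and HSPB1. They were also the only members with more raw counts in the IgG library than in the MT1-MMP library, which was 2.43 times as deep.

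**Figure D1:**
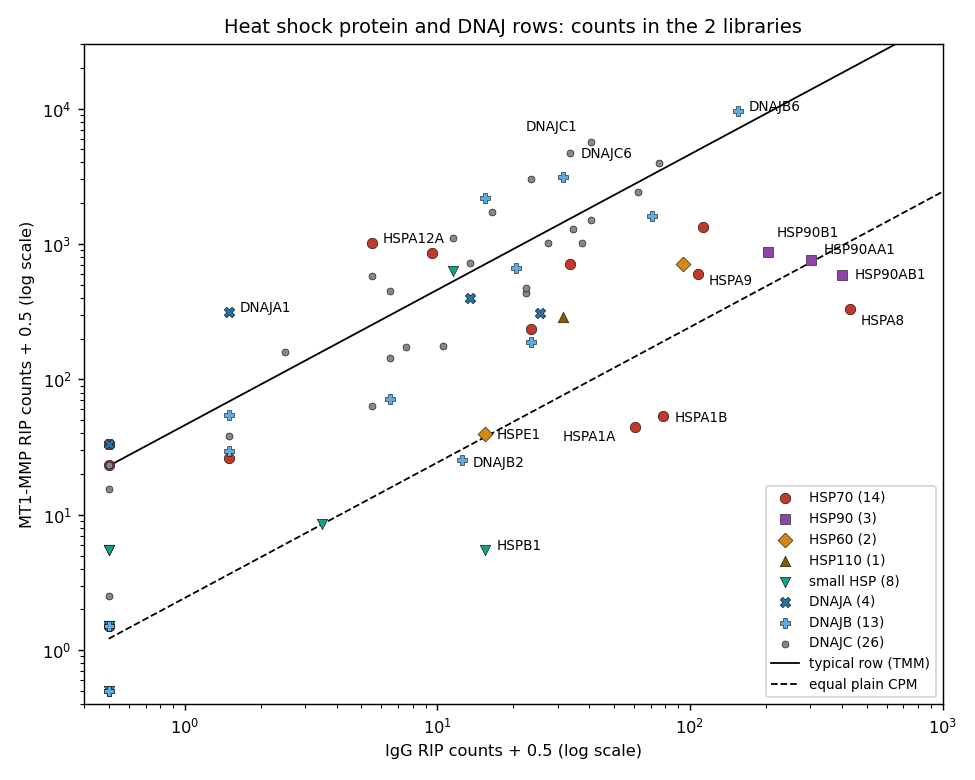
MT1-MMP RIP counts (vertical) against IgG RIP counts (horizontal), each plus 0.5 on a log axis, for all 71 members coloured by class. The solid line marks the typical row (45.9 to 1) and the dashed line equal plain CPM; HSPA8, HSPA1A, HSPA1B and HSPB1 lie farthest below the dashed line, HSP90AB1 and DNAJB2 just below it, and most DNAJ members around the solid line.

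HSP70 proteins spread over the widest range of any class, from -6.07 to 2.0 on the TMM scale. Of the 12 tested, 6 were called on the IgG side (50%, against 16.2% of protein-coding genes) and 0 on the MT1-MMP side (against 7.24%). HSPA8, HSPA1A and HSPA1B are short genes. In the shortest of 10 bins of protein-coding genes by span, which holds these genes, 55.5% were called on the IgG side. HSPA8, the constitutive cytosolic HSP70 that also strips clathrin from vesicles (hg38 chromosome 11, 123057489 to 123062462), had 330 MT1-MMP counts and 428 IgG counts. These equal 10.4 and 32.9 CPM. Its log2 ratio was -5.90 (95% interval -6.11 to -5.69) on the TMM scale and -1.66 (-1.87 to -1.45) by plain CPM, so it was lower in the MT1-MMP library on both. Within its span lie 3 small nucleolar RNA genes, SNORD14C, SNORD14D and SNORD14E, whose rows had 5, 8 and 16 IgG counts. HSPA1A and HSPA1B, the stress-inducible HSP70 genes, are intronless and almost identical, so the authors' counting could move reads between them. HSPA1A (chromosome 6, 31815543 to 31817942) had 44 and 60 counts and HSPA1B (31827738 to 31830254) had 53 and 78. Their log2 ratios of -5.96 and -6.07 differed by less than the counting error, the odds of an IgG read in HSPA1A being 0.927 times those in HSPA1B (95% interval 0.532 to 1.62).

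The next HSP70 members lay closer to the typical row. HSPA9, the mitochondrial HSP70 mortalin, had 602 and 107 counts and a log2 ratio of -3.03 (-3.33 to -2.72). HSPA13, an HSP70 of the microsomes, had 236 and 23 counts (-2.19, -2.78 to -1.48), and HSPA4, an HSP110-type exchange factor, 1337 and 112 (-1.95, -2.22 to -1.65). By plain CPM these 3 turned to 1.20, 2.05 and 2.29. An IgG read was 7.29 times as likely, in odds, in HSPA8 as in HSPA9 (5.64 to 9.47) and 15.5 times as likely as in HSPA4 (12.1 to 19.9), and these odds do not depend on the scale. HSPA4L, the close relative of HSPA4, had 706 and 33 counts (-1.12, -1.60 to -0.55). Its ratio lay just past the 2-fold limit on the IgG side, but its interval spans that limit, so it was not called.

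Other HSP70 members lay at or above the typical row. HSPA14, which works at the ribosome, had 851 and 9 counts (0.97, 0.11 to 2.18). HSPA12A, a distant HSP70 relative, had 1010 and 5 counts, the highest log2 ratio of the class (2.0, 0.91 to 3.76), just short of a call. It overlaps ENO4, whose row held 4117 and 24 counts. HSPA2, known from male germ cells, and HSPA12B had 33 and 23 MT1-MMP counts and 0 IgG counts. Against a floor of 3 IgG counts their ratios stay under that of the typical row, so no fold is given. HSPA1L, a testis gene beside HSPA1A, had 26 and 1. HSPA6 and HSPA7 each had 1 and 0 counts and were not tested. HSPA5, the HSP70 of the endoplasmic reticulum, lies outside the family as defined here and had 239 and 0 counts, where 341 would have been needed for a call at 0 IgG counts.

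All 3 HSP90 genes were called on the IgG side on the TMM scale, against 16.2% of protein-coding genes. None was called on either side by plain CPM, where 0.698% of protein-coding genes lay on the IgG side and 86.1% on the MT1-MMP side. HSP90AB1, the constitutive cytosolic form (chromosome 6, 44246194 to 44253883), had 589 and 399 counts, a log2 ratio of -4.96 (-5.14 to -4.77) and -0.72 by plain CPM (-0.91 to -0.53). HSP90AA1, the inducible cytosolic form (chromosome 14, 102080742 to 102139749), had 767 and 302 counts (-4.18, -4.37 to -3.98, and 0.061 by plain CPM). HSP90B1, the endoplasmic reticulum form also called GRP94 (chromosome 12, 103930410 to 103947926), had 875 and 203 counts (-3.42, -3.63 to -3.19, and 0.82 by plain CPM). The 3 intervals do not overlap. The odds of an IgG read were 1.72 times higher in HSP90AB1 than in HSP90AA1 (1.43 to 2.08) and 1.70 times higher in HSP90AA1 than in HSP90B1 (1.38 to 2.09). HSP90AA1 overlaps WDR20, whose row held 5189 and 42 counts, and what it shares with that row was not tested.

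The mitochondrial chaperonin and HSP110 lay on the same side. HSPD1, which forms the HSP60 barrel, had 713 and 93 counts (-2.59, -2.90 to -2.25), and HSPE1, its HSP10 lid, had 39 and 15 (-4.17, -5.03 to -3.18). By plain CPM they were at 1.65 and 0.067. The odds of an IgG read were 2.94 times higher in HSPE1 than in HSPD1 (1.45 to 5.72), although the genes lie head to head on chromosome 2 with their start sites close together. HSPE1 lies within the read-through gene HSPE1-MOB4, whose row held 716 and 22 counts. HSPH1, the stress-inducible HSP110, had 288 and 31 counts (-2.33, -2.84 to -1.72, and 1.91 by plain CPM).

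Apart from HSPB11, small HSPs had 20 counts or fewer in all. HSPB1, also called HSP27 (chromosome 7, 76302673 to 76304292), had 5 and 15 counts and the lowest log2 ratio of all tested members, -7.02 (-8.92 to -5.57), and was at -2.78 by plain CPM (-4.68 to -1.33). HSPB11, at 632 and 11 counts (0.26, -0.53 to 1.33), carries the class's name but is listed by RefSeq under another symbol and encodes an intraflagellar transport protein. HSPB8 had 8 and 3 counts. HSPB6 and HSPB9 had 5 and 0 each, HSPB2 and HSPB7 had 1 and 0, and HSPB3 was at 0 in both. At this depth 0 IgG counts still allow up to 3, so for these 5 genes no difference between the libraries could be detected.

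**Figure D2:**
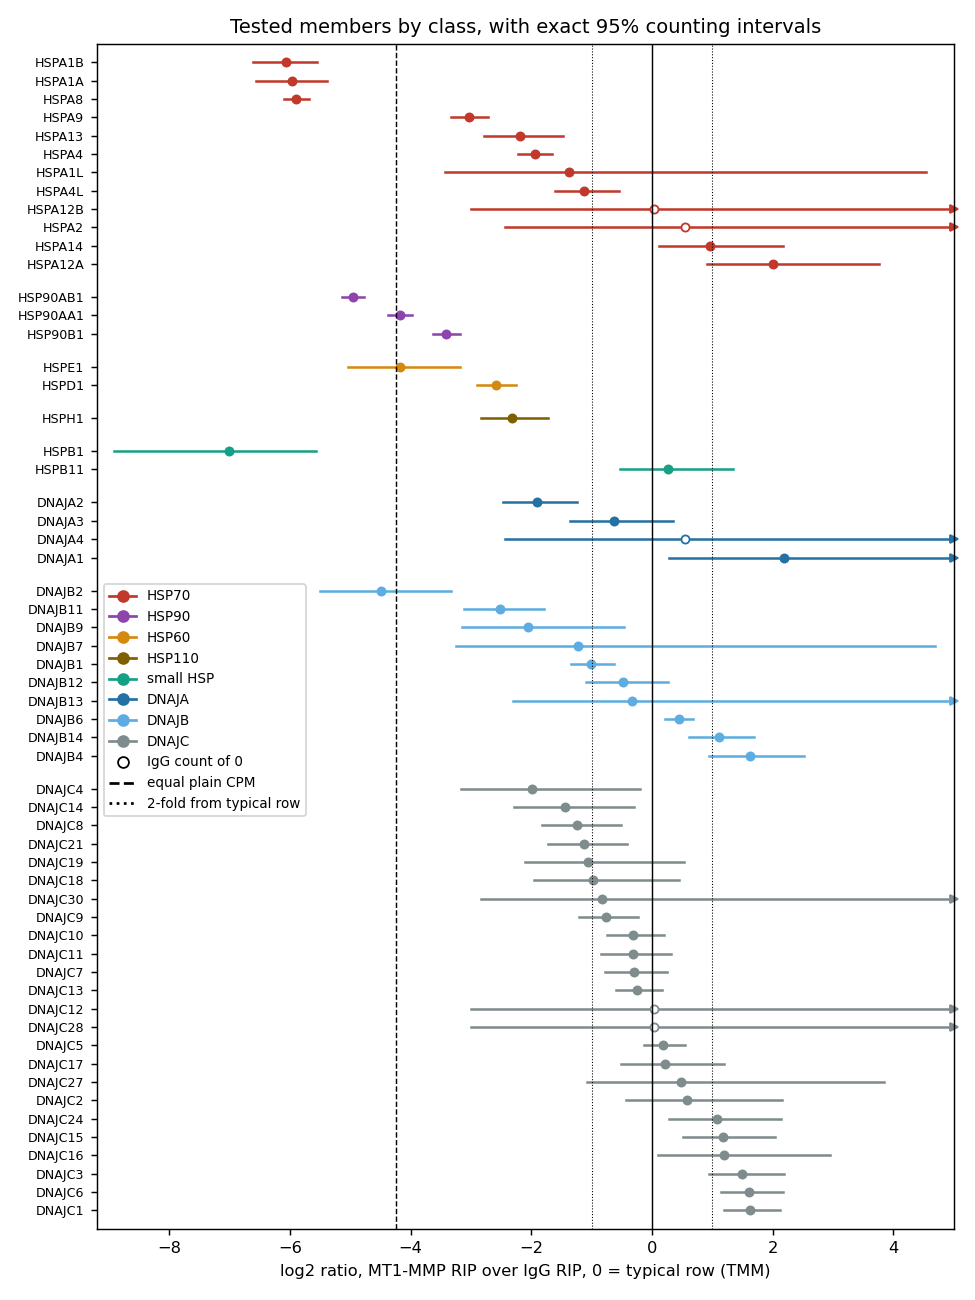
Log2 ratio of MT1-MMP RIP over IgG RIP for the 58 tested members, with 0 at the typical row, exact 95% counting intervals as bars (arrows run off the axis) and open circles for an IgG count of 0. Every HSP90, HSP60 and HSP110 bar lies left of the lower dotted 2-fold line, the HSP70 points run from -6.07 to 2.0, and the DNAJC bars lie around 0 with 0 called on the IgG side.

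Promoters of the members were searched for the heat shock element, the site bound by HSF1, to describe the members by a sequence feature of their own. The element is built from inverted GAA units. A 2-unit match was GAANNTTC or TTCNNGAA, and a 3-unit match was GAANNTTCNNGAA or TTCNNGAANNTTC. The 2-unit forms each read the same on both strands, the 3-unit forms are reverse complements of each other, and every 3-unit match contains 2-unit matches. RefSeq windows (GRCh38.p14, 250 bases before to 50 after a start) were at hand for 63 members. A 3-unit match occurred in 7 of them (11.1%), against 0.537% of the 15843 protein-coding genes with a window, and a 2-unit match in 22 (34.9%), against 14.9%. Among members called on the IgG side, 4 of 16 held a 3-unit match (HSPA8, HSP90AA1, HSP90AB1 and HSPD1) and 8 a 2-unit match. Among those called on neither side the numbers were 2 of 37 (DNAJB6 and DNAJA1) and 9. HSP members make up 13 of the 16 called on the IgG side, so this split largely follows class. By class, 5 of the 24 HSP members with a window (20.8%) and 2 of the 39 DNAJ members (5.13%) held a 3-unit match. DNAJC6, the only member called on the MT1-MMP side with a window, held a 2-unit match and no 3-unit match. HSPA6, with 1 and 0 counts, held the remaining 3-unit match. The stretches of 30 bases around the match nearest to the start show how alike these sites are, with the 3-unit element in capitals (a pair of overlapping matches in HSPD1), written 5′ to 3′ on the gene's strand. Those of HSPA8, HSP90AA1, HSP90AB1 and HSPD1 lie within the annotated span of their gene, since the windows belong to a start inside it. The match of DNAJA1 lies after its start and is not shown.
HSPA8 (chr11:123062170-123062199, minus strand): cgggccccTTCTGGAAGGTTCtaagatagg
HSP90AA1 (chr14:102087111-102087140, minus strand): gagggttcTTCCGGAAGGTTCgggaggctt
HSP90AB1 (chr6:44247823-44247852, plus strand): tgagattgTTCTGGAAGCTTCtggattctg
HSPD1 (chr2:197500061-197500090, minus strand): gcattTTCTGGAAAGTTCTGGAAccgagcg
DNAJB6 (chr7:157336865-157336894, plus strand): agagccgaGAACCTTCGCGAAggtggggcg
HSPA6 (chr1:161524458-161524487, plus strand): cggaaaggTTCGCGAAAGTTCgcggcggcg

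HSPA1A and HSPA1B held only the 2-unit form. The 250 bases before each start are printed because they show how far the pair stays alike outside the coding part, with the 2-unit match in capitals. Shifted by 1 base, 235 of 249 bases were equal (94.4%).
HSPA1A (chr6:31815293-31815542, plus strand): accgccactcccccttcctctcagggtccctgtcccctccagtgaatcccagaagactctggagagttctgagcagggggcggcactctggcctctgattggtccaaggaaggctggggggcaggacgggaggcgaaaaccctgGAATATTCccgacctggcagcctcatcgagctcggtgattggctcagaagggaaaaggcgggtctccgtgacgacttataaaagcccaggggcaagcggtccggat
HSPA1B (chr6:31827488-31827737, plus strand): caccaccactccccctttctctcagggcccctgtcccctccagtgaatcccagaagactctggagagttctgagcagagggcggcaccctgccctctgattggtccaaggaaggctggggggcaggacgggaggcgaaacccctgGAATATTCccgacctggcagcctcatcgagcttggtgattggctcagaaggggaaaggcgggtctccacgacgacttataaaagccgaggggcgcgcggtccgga
A match describes these letters and not a bound site, and RIP counts say nothing on the use of a promoter.

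The DNAJA genes, which encode the J proteins most like bacterial DnaJ, were spread on both sides. DNAJA1, a main partner of cytosolic HSP70, had 313 MT1-MMP counts and 1 IgG count, the highest log2 ratio of all members (2.19, 0.28 to 8.08), which did not reach a call. DNAJA2, its close relative, had 310 and 25 counts and was called on the IgG side (-1.91, -2.48 to -1.24), but lay at 2.32 by plain CPM. With nearly equal MT1-MMP counts, the odds of an IgG read were 25.2 times higher in DNAJA2 than in DNAJA1, with a wide interval of 4.07 to 1040 set by the single IgG count. DNAJA3, the mitochondrial form, had 400 and 13 counts (-0.63, -1.37 to 0.34), and DNAJA4 had 33 and 0.

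In the DNAJB class 2 of the 10 tested members were called on the IgG side (20%, against 16.2% of protein-coding genes) and 0 on the MT1-MMP side (against 7.24%). DNAJB2, which carries ubiquitin-binding motifs and is known from neurons, had 25 and 12 counts (-4.49, -5.51 to -3.33, and -0.25 by plain CPM). DNAJB11, the BiP cochaperone of the endoplasmic reticulum, had 188 and 23 (-2.52, -3.12 to -1.80, and 1.72 by plain CPM). DNAJB1, the stress-inducible HSP40, had 1610 and 70 counts (-1.01, -1.34 to -0.63). Its interval spans the 2-fold limit on the IgG side, so it was not called. It overlaps TECR, whose row held 1676 and 48. DNAJB6, a suppressor of protein aggregation, had the most counts of any member, 9629 and 154 (0.44, 0.22 to 0.68). DNAJB14, a J protein of the endoplasmic reticulum membrane, had 3103 and 31 (1.10, 0.62 to 1.68), and its paralogue DNAJB12 had 670 and 20 (-0.49, -1.09 to 0.27). DNAJB4 had 2200 and 15 (1.63, 0.95 to 2.52) and overlaps FUBP1, whose row held 2165 and 34. The odds of an IgG read in DNAJB1 were 2.72 times those in DNAJB6 (2.01 to 3.65) and 6.37 times those in DNAJB4 (3.60 to 12.04).

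Of the 24 tested DNAJC members 0 were called on the IgG side on the TMM scale, against 16.2% of protein-coding genes. Their spans ran from 2.54 to 247.2 kb with a median of 40.9 kb. In the span bin of 36.9 to 51.0 kb, which holds that median, 5.79% of protein-coding genes were called on the IgG side. That share was 55.5% in the shortest bin and 1.4% in the longest. By plain CPM 0 were called on the IgG side, against 0.698%, and all 24 on the MT1-MMP side, against 86.1%. On the TMM scale 2 were called on the MT1-MMP side (8.33%, against 7.24% of protein-coding genes), DNAJC1 and DNAJC6. DNAJC1, a J protein of the endoplasmic reticulum membrane (chromosome 10, 21756548 to 22003730), had 5708 and 40 counts (1.62, 1.19 to 2.12). DNAJC6, or auxilin, which recruits HSC70 to clathrin coats (chromosome 1, 65264749 to 65415871), had 4699 and 33 (1.61, 1.14 to 2.17). They have the longest spans of the class, 247.2 and 151.1 kb. Of the protein-coding genes of like span (10 bins by span), 39.0% and 16.7% were called on that side, and the log2 ratios of DNAJC1 and DNAJC6 lay 0.15 and 0.62 above the medians of those bins. DNAJC3, the inhibitor p58IPK of the endoplasmic reticulum stress response, had 3039 and 23 counts (1.49, 0.94 to 2.19), just short of a call. DNAJC5, the synaptic vesicle chaperone cysteine string protein, had 3932 and 75 (0.18, -0.14 to 0.54), and DNAJC13, an endosomal protein, had 2424 and 62 (-0.24, -0.60 to 0.16). The lowest members of the class were DNAJC4 with 63 and 5 counts (-1.99, -3.16 to -0.19), DNAJC14 with 176 and 10 (-1.45, -2.30 to -0.30) and DNAJC8, a protein of the spliceosome, with 436 and 22 (-1.24, -1.83 to -0.52). Over the class the log2 ratios ran from -1.99 to 1.62 with a median of -0.10 (4.13 by plain CPM). That median turned to 0.031 under upper quartile scaling and to 0.53 under totals without the ribosomal DNA block.

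In all, 18 pairs of related members were set against each other, chosen with their counts known, and for 16 the 95% interval of the odds ratio, not adjusted for their number, excluded 1. The exceptions were HSPA1A with HSPA1B, and DNAJB11 with DNAJB9 (1.45, 0.543 to 4.52), both J proteins of the endoplasmic reticulum lumen.

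Gene span, the distance from start to end with introns, went along with the ratio inside the family. Across the 58 tested members, which share the same 2 libraries and are not replicates, Spearman's rho between span and log2 ratio was 0.62. Span went with MT1-MMP counts at a rho of 0.80 and with IgG counts at a rho of 0.26, which was 0.63 over the 38 DNAJ members and 0 over the 20 HSP members. The 16 members called on the IgG side had a median span of 12.9 kb (1.62 to 59.0 kb), and the 40 called on neither side had a median of 32.6 kb. Each member was also set against the median of protein-coding genes in its own span bin, of 10 equally filled bins. The difference in log2 ratio was -4.56 for HSP90AA1, -4.29 for HSPB1, -3.34 for HSPA1B, -3.29 for HSP90AB1 and -3.17 for HSPA8. The bin of HSP90AA1 rests on its full annotated span of 59.0 kb, and the promoter window searched above belongs to a start inside that span. Its place against the bin of a shorter span was not tested. All 16 members called on the IgG side lay below their bin's median, HSPA13 nearest to it (-0.52). A call needs a ratio more than 2-fold below the typical row. In bins with a median of -0.99 or higher this result was therefore fixed in advance. Only the shortest bin (median -2.73) and the next (-1.67) left room for a called member above the median. Of the 20 tested HSP members, called or not, 14 lay below their bin's median, with a median difference of -1.87. Of the 38 DNAJ members 15 did, with a median difference of 0.19. With members at 0 IgG counts set to the floor of 3, these became 16 of 20 with a median of -2.14 and 16 of 38 with a median of 0.15. DNAJA1, on its single IgG count, lay 3.17 above its bin's median.

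**Figure D3:**
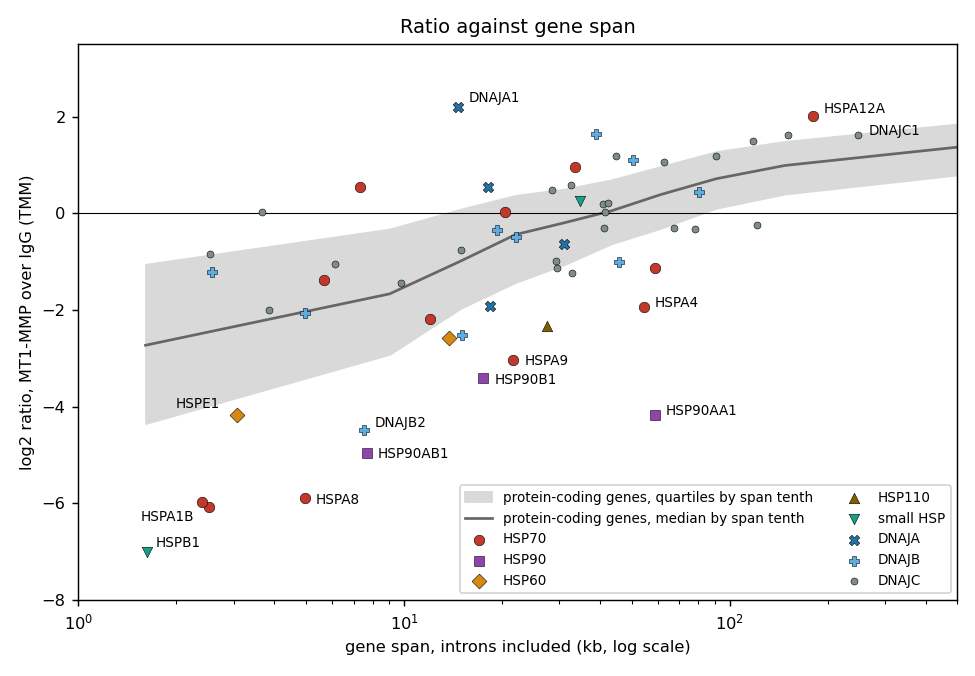
Log2 ratio (TMM scale) against gene span in kb on a log axis for the 58 tested members. The grey line and band give the median and quartiles of protein-coding genes in each of 10 span bins. Members below the band include HSP90AA1, HSPA8, HSPA1B and HSPB1, and members above it include DNAJA1, DNAJB4, HSPA12A and HSPA14.

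Set per kb of span, HSP and DNAJ members had medians close to each other in the MT1-MMP library and far apart in the IgG library. The median was 18.3 MT1-MMP counts per kb over the tested HSP members (quartiles 9.29 and 26.0) and 17.0 over the tested DNAJ members (12.8 and 25.2). In the IgG library it was 3.47 counts per kb over the HSP members (0.305 and 9.84) and 0.410 over the DNAJ members (0.179 and 1.01). Over all tested protein-coding genes the medians were 13.6 MT1-MMP and 0.326 IgG counts per kb. The HSP members also had shorter spans, with a median of 15.6 kb against 31.7 kb, and what this adds to their counts per kb was not tested. HSPA8 had 86.0 IgG counts per kb, HSP90AB1 51.9, HSPA1B 31.0 and HSPA1A 25, while no DNAJ member exceeded 2.47, the value of DNAJC9. In the MT1-MMP library DNAJB6 led with 120 counts per kb, followed by DNAJC5 with 96.2 and HSP90AB1 with 76.6. The IgG counts per kb of the HSP and DNAJ members overlapped, since HSPA12A had 0.0278 and HSPA2 and HSPA12B had 0.

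**Figure D4:**
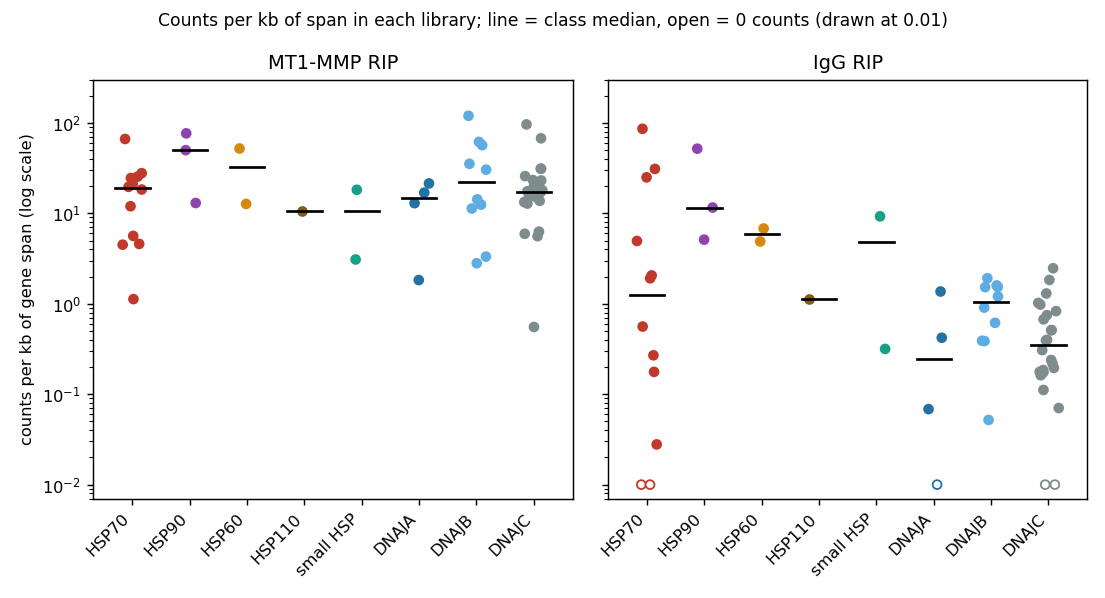
Counts per kb of gene span on a log axis, by class, in the MT1-MMP RIP (left) and the IgG RIP (right) for the 58 tested members; lines are class medians and open circles are 0 counts. MT1-MMP medians stay between 10.5 and 49.95 in all 8 classes, and IgG medians run from 0.244 in DNAJA to 11.6 in HSP90.

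The members were also grouped by function. A list of 14 heat-inducible members, targets of HSF1, was drawn up with earlier results of these data known. It includes HSPA8 and HSP90AB1, described above as constitutive forms. Of the 14, 13 were tested, and 9 were called on the IgG side (69.2%, against 16.2% of protein-coding genes) and 0 on the MT1-MMP side (against 7.24%). The median log2 ratio was -4.17, or -2.13 against the span bins. By plain CPM it was 0.067, with 4 called on the IgG side and 6 on the MT1-MMP side, against 0.698% and 86.1% of protein-coding genes. The 4 not called on the TMM scale were HSPA4L, DNAJB1, DNAJA1 and DNAJB4. Of 9 tested J proteins of the endoplasmic reticulum, DNAJB11 was called on the IgG side and DNAJC1 on the MT1-MMP side (11.1% each, against 16.2% and 7.24%), with a median of -0.32 (3.92 by plain CPM). Of 9 tested mitochondrial members, HSPA9, HSPD1 and HSPE1 were called on the IgG side (33.3%, against 16.2%), and none of the mitochondrial J proteins DNAJA3, DNAJC11, DNAJC15, DNAJC19, DNAJC28 and DNAJC30 was called. The median was -0.84 (3.40 by plain CPM).

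Other cochaperones and regulators of the heat shock response, 42 genes that are not members, were counted in the same way. Of 39 tested, 20 were called on the IgG side (51.3%, against 16.2% of protein-coding genes) and 1 on the MT1-MMP side (2.56%, against 7.24%). The median log2 ratio was -1.82. Against the span bins the median was -0.76, and the bins themselves were called on the IgG side at 55.5% for the shortest genes down to 1.4% for the longest. By plain CPM the median was 2.42, against 4.29 over all tested protein-coding genes. On that scale 0 were called on the IgG side and 28 on the MT1-MMP side, against 0.698% and 86.1% of protein-coding genes. The lowest by their interval were STUB1, the ubiquitin ligase CHIP that binds HSP70 and HSP90 (11 and 15 counts, -5.95, -7.24 to -4.75), BAG6, which escorts membrane proteins (277 and 106, -4.14, -4.46 to -3.80), CCT7 (241 and 87, -4.06, -4.41 to -3.68) and HSBP1, a negative regulator of HSF1 (94 and 29, -3.84, -4.44 to -3.17). CCT7 is a subunit of the cytosolic chaperonin TRiC. All 8 TRiC subunits, a group singled out after its values were seen, were called on the IgG side, with log2 ratios from -4.06 for CCT7 to -2.23 for CCT3. Their spans ran from 11.1 kb for TCP1 to 29.3 kb for CCT3. Across the bins of those spans, 38.6% (shortest) down to 12.8% (longest) of protein-coding genes were called on that side. SIL1, the exchange factor of BiP, was the 1 gene called on the MT1-MMP side, with 11900 and 82 counts (1.65, 1.35 to 1.99) over a span of 251.6 kb. HSF1 itself had 1385 and 31 counts (-0.062, -0.55 to 0.52) and HSF2 had 258 and 8 (-0.59, -1.51 to 0.72).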

How the data were processed

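The deposited table gives raw read counts per gene row, as whole numbers, for 1 MT1-MMP RIP and 1 IgG RIP library. The submitters' processing notes name build hg38 and the tools SAMtools, HISAT2 and cutadapt. Not given in the sources used here are their versions, the counting tool, the annotation and whether strand was used. Rows that overlap can therefore share reads, and antisense partners cannot be told apart. Columns were matched by the names in the labels. Names were matched to RefSeq (GRCh38.p14) for 70 members directly and for HSPB11 through an older symbol.

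Rows repeating both name and counts were left out of the 25933 tested rows. Scaling used TMM factors from edgeR 4.0.16. Log2 ratios had 0.5 counts added, and 95% intervals came from the exact binomial (Clopper-Pearson) with each row's summed count held fixed. Without molecular identifiers, reads may be copies of one molecule. The interval script was tested on simulated counts. Alternatives were other scalings (DESeq2 1.42.0 size factors among them), count minimums, counts added, fold limits, members without overlap and removal of the span trend. Every member could be named; given in full are all HSP90, HSP60 and HSP110 genes, up to 6 per direction and the 4 nearest to a ratio of 1 in other classes, and up to 4 cochaperones per direction. Members, lists and the rule were chosen with earlier results of these data known, and odds ratios between pairs of members after their counts were seen.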

Additional observations from a re-analysis of the deposited data

How the results depend on the processing

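No paired analysis was possible because each group has 1 library, and for the same reason no replicate could be left out. The scale decided most directions. With total counts as the scale, 4 members were called on the IgG side and 46 on the MT1-MMP side (16 and 2 under TMM). The class medians then turned to 2.57 for HSP70, 0.86 for small HSPs, 0.061 for HSP90, 3.93 for all DNAJ, 4.20 for DNAJA, 3.49 for DNAJB and 4.13 for DNAJC. So did DNAJA2 (2.32), DNAJB11 (1.72), HSPH1 (1.91), HSPE1 (0.067), HSPD1 (1.65), HSPA9 (1.20), HSPA13 (2.05), HSPA4 (2.29), HSP90AA1 (0.061) and HSP90B1 (0.82).

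The count on the MT1-MMP side was 5 with the upper quartile, 7 with totals without the ribosomal DNA block, 12 with intervals beyond 1-fold, 0 with intervals beyond 4-fold and 0 over the 23 tested members without overlap, where 9 were called on the IgG side. The upper quartile turned the DNAJA median to 0.093 and the DNAJC median to 0.031. Totals without the block turned those of all DNAJ (0.33), DNAJA (0.60) and DNAJC (0.53). Removing the span trend turned those of all DNAJ (0.19), DNAJA (0.55, but -0.76 with DNAJA4 at the floor of 3 IgG counts), DNAJB (0.028) and DNAJC (0.22) and moved that of HSP90 to -3.29. With 5 counts added the medians were -0.95 for DNAJ, -2.81 for HSP70, -1.58 for DNAJA and -1.66 for DNAJB, and with a minimum of 100 counts the small HSP median was 0.26, from HSPB11 alone. The count on the IgG side was 24 with intervals beyond 1-fold, 11 beyond 4-fold, 13 with a minimum of 100 counts, 14 with totals without the block, and 16 or 17 under the upper quartile, DESeq2 size factors and a minimum of 1 count. The depth of the IgG library limits calls in the MT1-MMP direction: with 0 IgG counts, 341 MT1-MMP counts were needed.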
